A study of Mus musculus with 2 samples.

Results

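The solute carriers are the large superfamily of membrane proteins that move amino acids, sugars, ions, metals, vitamins and metabolites across the cell surface and across the membranes of mitochondria, Golgi and lysosomes. Members were all genes of the count matrix whose symbol begins with Slc and a digit, other than Slc2a1 and Slc16a3, with at least 50 unique molecular identifiers (UMIs, counted transcripts) over all barcodes. They were 173 of the 374 such symbols and of 32285 genes in all, from 43 families, and the remaining 201 symbols lay below the minimum. The members just inside it were Slc40a1 with 50 UMIs and Slc39a8 with 51, and those just outside were Slc25a42 and Slc9a9 with 48 UMIs each. The rule used only this total and no difference between cells.

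Organoids were grown in Matrigel from the corpus glands of the stomach and from the esophagus of mice. The methods name wild-type female C57BL/6 mice and tamoxifen-induced reporter lines, and do not state which gave the sequenced organoids. Cells were dissociated, given a sample tag per tissue and sequenced together from the 3′ ends of transcripts. The comparison set 46 columnar cells of the stomach tag (Bar11) against 702 squamous cells of the esophageal tag (Bar8), with lineage called from keratins. Cells of 3 mice were combined for each tissue into a single sample, so no difference has a replicate check, no p-value is given, and intervals are exact 95% intervals for counting error only. Both media held EGF, noggin, FGF-10, N-acetylcysteine, nicotinamide and inhibitors of the TGF-β receptor kinase and of ROCK, the stomach medium added WNT3A and R-spondin1 conditioned media and gastrin, and the esophageal medium added forskolin. Tissue and medium therefore cannot be told apart.

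The stomach cells held 2469229 UMIs with a median of 59576 per cell, and the esophageal cells 18456220 UMIs with a median of 23460. Of 100 columnar barcodes of the stomach tag, 41 lay above the limit of 80000 UMIs and were left out. Median mitochondrial shares were 7.47% in the stomach cells and 3.70% in the esophageal cells. The squamous keratins Krt5, Krt14, Krt6a and Krt13 stood in the stomach cells at 1.47% of their esophageal level. The columnar keratins Krt8 and Krt18 stood in the esophageal cells at 2.22% of their stomach level. Free RNA, mixed droplets and any true expression enter these shares together. The same keratins set the lineage call, which limits the shares, so they cannot serve as a measure of stray RNA for other genes. A list of 15 columnar markers summed to 6853 CPM (counts per 1000000 UMIs) in the stomach cells and 250.7 CPM in the esophageal cells, although the pit mucin Muc5ac was at 0 in the stomach cells. Parietal markers were nearly absent from the stomach cells, at 21.9 CPM over 4 genes with Atp4b at 0, and the endocrine, fibroblast, smooth muscle and endothelial markers were all at 0 there.

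Epithelia use these carriers in different ways. A gastric gland moves bicarbonate, chloride and protons between blood and lumen and exports glycosylated and sulfated mucin, for which nucleotide sugars and sulfate must enter the Golgi. A stratified squamous epithelium divides in its basal layer and then fills its cells with keratin as they move to the surface, and it takes up cystine and neutral amino acids for glutathione and protein synthesis. Many amino acid exchangers of the Slc7 family reach the cell surface only when paired with the heavy chain Slc3a2.

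Of the 173 members, 49 were higher in stomach columnar cells, by a ratio of at least 2 with an interval above 1, which is 28.3% of the members beside 18.1% of the 11315 genes of at least 50 UMIs. A further 27 members were lower, by a ratio of at most 0.5 with an interval below 1, 15.6% of the members beside 13.5% of all these genes. The remaining 97 met neither rule. The median log2 fold of stomach over esophagus was 0.30 over the members and 0.08 over all genes, and scaling by trimmed means (TMM) moved every log2 fold by -0.19. At a 10-fold limit, 18 members lay above that ratio in the stomach cells and 2 members at or below a ratio of 0.1. These counts cannot show a preferred direction, because the floors for a count of 0 differed. The floor was 1.215 CPM in the stomach cells and 0.1625 CPM in the esophageal cells, which makes large ratios easier to reach on the stomach side. No share of all genes at this limit is given here.

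**Figure D1:**
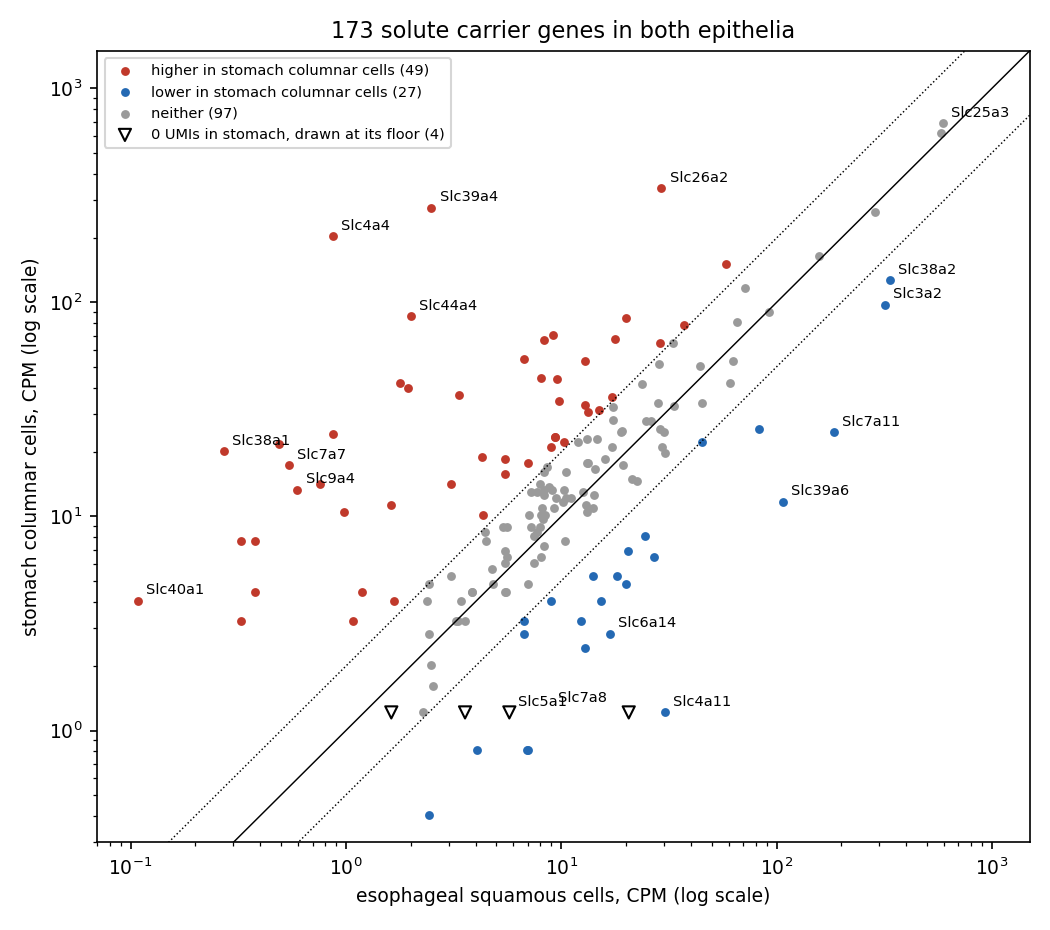
CPM of each of the 173 members in stomach columnar cells (vertical) against esophageal squamous cells (horizontal), both on log axes; the solid line marks equal levels and the dotted lines a ratio of 2 either way. Slc4a4 and Slc39a4 lie farthest above the line, Slc4a11 and Slc7a8 farthest below it, and the 4 triangles had 0 UMIs in the stomach cells, 3 of them being among the 27 called lower.

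Substrate classes were set mainly by gene family. Of the 21 Slc35 members, nucleotide sugar transporters and related proteins, 6 were higher in the stomach cells and 0 were lower. Fatty acid and choline transporters had the highest class median, a log2 fold of 1.92, with 4 of 7 members higher and 1 lower. Amino acid transporters had 6 of 23 members higher and 9 lower around a median log2 fold of 0.12. The inorganic anion class was split, with 5 of 13 higher and 5 lower, and its 13 members include Slc4a1ap, an adaptor and not a transporter. The mitochondrial carriers, the largest class, had 9 of 36 higher, 4 lower and 23 in neither. Beside these class counts, 18.1% of all genes of at least 50 UMIs were higher and 13.5% were lower.

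**Figure D2:**
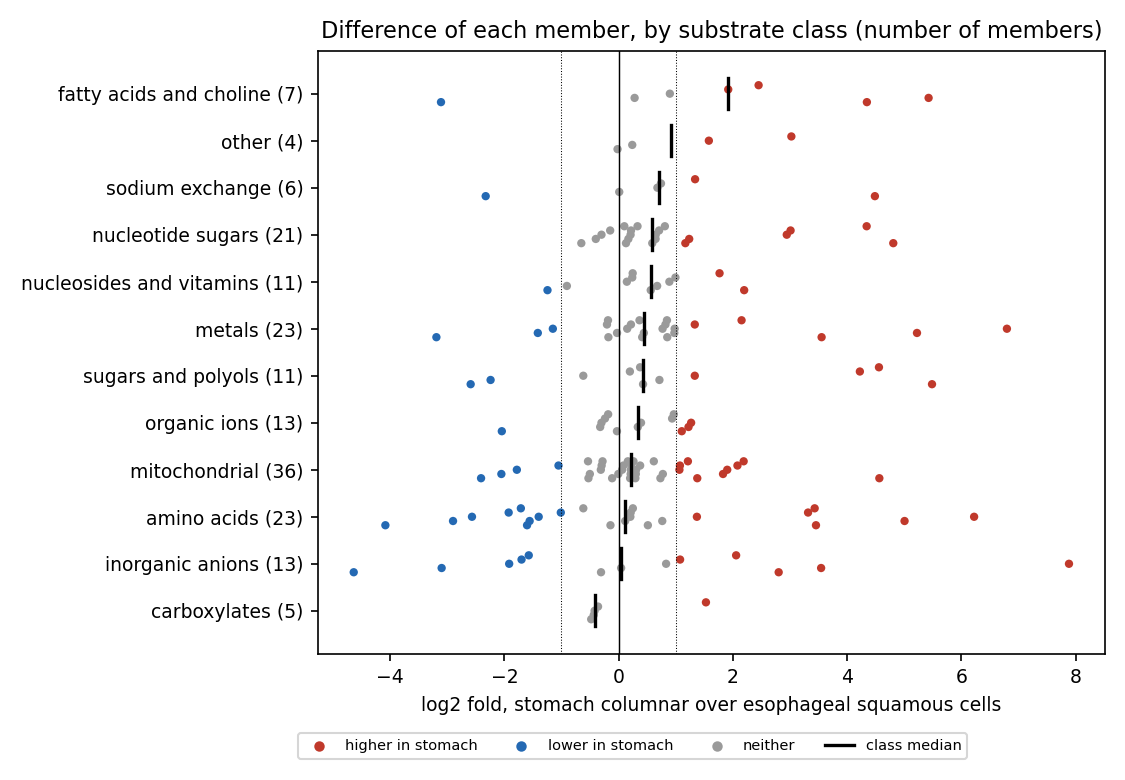
Log2 fold of stomach columnar over esophageal squamous cells for each member (points), by substrate class with its number of members; black bars are class medians and dotted lines mark a ratio of 2. Class medians run from -0.42 for carboxylates to 1.92 for fatty acids and choline, and inorganic anion transporters span the widest range, from -4.64 to 7.88.

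Amino acid transporters of the squamous cells centred on the cystine, neutral and heavy-chain carriers. Summed over the 23 members, amino acid transporters reached 513.9 CPM in stomach cells and 1085 CPM in esophageal cells, a ratio of 0.474 (interval 0.447 to 0.501). Slc7a11, the cystine and glutamate exchanger that feeds glutathione synthesis, stood at 24.7 CPM in stomach cells and 184 CPM in esophageal cells, a ratio of 0.134 (0.102 to 0.173). Its heavy chain Slc3a2 stood at 97.6 CPM in stomach cells and 320 CPM in esophageal cells, a ratio of 0.305 (0.267 to 0.347). The exchanger and its heavy chain were thus both lower in the stomach cells, the exchanger by more. Slc38a2, a sodium-coupled carrier of small neutral amino acids, stood at 128 CPM in stomach cells and 336 CPM in esophageal cells, a ratio of 0.379 (0.338 to 0.425). Slc7a8, a neutral amino acid exchanger that also needs Slc3a2, had 0 UMIs in 46 stomach cells, which allows up to 1.21 CPM, and 380 UMIs or 20.6 CPM in esophageal cells. The ratio of Slc7a8 was therefore at most 0.059.

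The other members of this class that were lower in the stomach cells carry glycine, serine and alanine, proline or cationic amino acids. Slc1a4, an exchanger of alanine, serine and cysteine, stood at 3.24 CPM in stomach cells and 12.3 CPM in esophageal cells, a ratio of 0.263. As many as 62.5% of the 8 stomach UMIs of Slc1a4 lay in 1 cell, and the ratio was 0.103 once the top cell of each group was left out. Slc6a9, the glycine transporter GlyT1, stood at 8.10 CPM in stomach cells and 24.6 CPM in esophageal cells. Slc7a1, the main cationic amino acid transporter, lay at the edge of the rule, with 22.3 CPM in stomach cells and 44.9 CPM in esophageal cells. Its call ended under 5 alternatives, among them the fit without upper limits on UMIs and genes, where the ratio was 0.751. Slc6a14 and Slc6a20a complete the 9, and both are described with the squamous clusters that held most of their UMIs.

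Stomach cells had another set of amino acid carriers at levels close to the floor in squamous cells. Slc38a1, a paralog of Slc38a2 that also takes up glutamine and other neutral amino acids with sodium, stood at 20.2 CPM (15.0 to 26.7) in stomach cells and 0.271 CPM (0.088 to 0.632) in esophageal cells, a ratio of 74.7 (29.98 to 240). Slc7a7, a heavy-chain-dependent exchanger of cationic and neutral amino acids, stood at 17.4 CPM in stomach cells and 0.542 CPM in esophageal cells, a ratio of 32.1 (15.9 to 71.7). Both carriers have a relative in the same family that was lower in the stomach cells and lies close by on the same chromosome and strand. Slc38a1 spans chr15:96571418-96642913 and Slc38a2 spans chr15:96687392-96699730 (mm10, minus strand), with 44479 bases between them. Slc7a7 spans chr14:54369442-54417780 and Slc7a8 spans chr14:54722209-54781946 (minus strand), with 304429 bases between them. The ratio of Slc38a1 was 14.2 without the keratin call, and that of Slc7a7 was 4.11 with every cell weighted equally.

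Slc7a4, Slc43a2, Slc1a1 and Slc38a10 were the remaining amino acid members higher in the stomach cells, with ratios of 10.97, 10.8, 9.97 and 2.59. Slc43a2 carries large neutral amino acids and Slc1a1 glutamate, and Slc1a1 rests on 8 UMIs in the stomach cells and 6 in the esophageal cells. The call of Slc38a10 ended with every cell weighted equally, where its ratio was 1.64 and those of Slc43a2 and Slc1a1 were 16.8 and 4.02. Slc1a5, the main glutamine carrier of dividing cells, stood at 50.6 CPM in stomach cells and 43.9 CPM in esophageal cells, with an interval of the ratio from 0.948 to 1.39. Slc7a5, the large neutral amino acid exchanger, stood at 19.8 CPM in stomach cells and 30.5 CPM in esophageal cells, a ratio of 0.652 (0.476 to 0.874) that did not reach the rule.

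**Figure D3:**
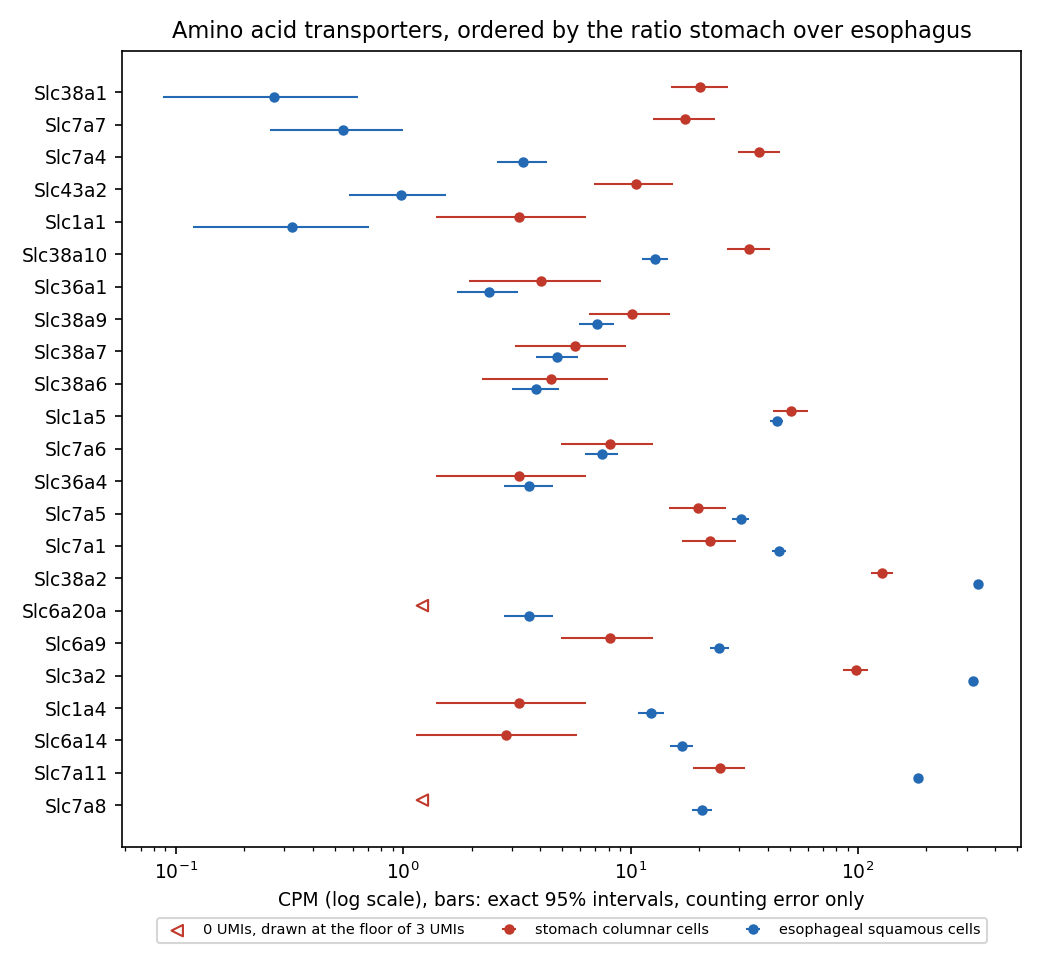
CPM of the 23 amino acid transporters in stomach columnar cells and esophageal squamous cells on a log axis, with exact 95% intervals for counting error. Slc38a1 and Slc7a7 head the list with separate intervals, Slc1a5 and Slc7a6 overlap, and Slc7a8 and Slc6a20a had 0 UMIs in the stomach cells.

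Amino acid carriers are known targets of the transcription factor ATF4, which binds composite sites with the core letters TGATGCAA when cells sense a lack of amino acids. These letters were searched on both strands in RefSeq promoters of GRCm38.p6, the build that mm10 names, from 250 bases before to 50 after each start. At least 1 promoter held them for 1.03% of 27025 genes, for 4 of the 132 members with an entry and for 3 of 19 amino acid members. Among these, Slc7a11 and Slc1a4 were lower in the stomach cells and Slc7a7 was higher, so the letters were found in carriers of both directions. The 3 promoters are shown because these carriers lie on both sides of the comparison, with the matches in capitals (read on either strand) and all letters 5′ to 3′ on the strand of the gene. In Slc7a11 at chr3:50443564-50443863 (minus strand) the matches begin 66 and 47 bases before the start, in Slc1a4 at chr11:20332664-20332963 (minus strand) the match begins 4 bases before it, and in Slc7a7 at chr14:54417895-54418194 (minus strand, 1 of 5 starts in the table) it begins at the base before the start.
Slc7a11: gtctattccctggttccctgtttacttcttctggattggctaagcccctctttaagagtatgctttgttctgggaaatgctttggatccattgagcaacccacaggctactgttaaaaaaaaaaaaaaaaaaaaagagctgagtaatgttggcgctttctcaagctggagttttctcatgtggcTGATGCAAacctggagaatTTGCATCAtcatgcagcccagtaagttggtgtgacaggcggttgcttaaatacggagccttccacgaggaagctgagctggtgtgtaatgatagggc
Slc1a4: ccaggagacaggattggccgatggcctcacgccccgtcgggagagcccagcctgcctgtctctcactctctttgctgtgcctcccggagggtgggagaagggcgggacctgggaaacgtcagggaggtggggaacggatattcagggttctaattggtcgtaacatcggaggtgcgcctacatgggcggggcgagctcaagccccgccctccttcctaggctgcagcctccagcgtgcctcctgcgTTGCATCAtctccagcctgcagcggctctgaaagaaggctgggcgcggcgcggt
Slc7a7: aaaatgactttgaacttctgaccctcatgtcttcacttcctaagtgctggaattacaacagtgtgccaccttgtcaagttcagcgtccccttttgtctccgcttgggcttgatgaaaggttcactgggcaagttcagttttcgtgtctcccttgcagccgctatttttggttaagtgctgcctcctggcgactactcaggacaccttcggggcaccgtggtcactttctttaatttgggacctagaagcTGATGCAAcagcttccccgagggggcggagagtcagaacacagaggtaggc

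A match describes the letters only, and binding of a factor was not measured. The 9 amino acid members lower in the stomach cells all had a promoter entry, and 2 of them held the letters. Of the 6 that were higher, 4 had an entry and 1 held the letters, and of the 8 in neither group, 6 had an entry and 0 held them.

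Transporters of bicarbonate, chloride, sulfate and phosphate differed in both directions, also within the same family, and summed to 761 CPM in stomach cells and 266 CPM in esophageal cells. These sums include the adaptor Slc4a1ap, which its family number placed in the class. Slc4a4, the electrogenic sodium bicarbonate cotransporter of basolateral membranes (chr5:88886818-89239653, plus strand), stood at 205 CPM (187 to 224) in stomach cells and 0.867 CPM (0.496 to 1.41) in esophageal cells, a ratio of 236 (144 to 417). In cells thinned to 5000 UMIs, which left out 1 stomach and 211 esophageal cells, 27 of 45 stomach cells (44.3% to 74.3%) and 4 of 491 esophageal cells (0.222% to 2.07%) had a UMI. Unthinned, the shares were 97.8% of stomach cells and 2.28% of esophageal cells. Its esophageal level was 0.423% of its stomach level, and the ratio was 31.5 with every cell weighted equally and 28.4 without the keratin call. Slc4a2, the basolateral chloride and bicarbonate exchanger, stood at 53.5 CPM in stomach cells and 12.8 CPM in esophageal cells, a ratio of 4.16 (3.34 to 5.17). These acid-base exchangers were both higher in the stomach cells, while other members of their family were lower. Slc4a11, a borate transporter relative known for its role in the corneal endothelium (chr2:130684113-130697519, minus strand), had 3 UMIs or 1.21 CPM in stomach cells and 558 UMIs or 30.2 CPM in esophageal cells, a ratio of 0.040 (0.0083 to 0.118) that was 0.091 without upper limits on UMIs and genes. Slc4a7, an electroneutral sodium bicarbonate cotransporter, stood at 25.5 CPM in stomach cells and 82.8 CPM in esophageal cells, a ratio of 0.308 (0.235 to 0.396).

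Slc26a2, which brings sulfate into the cell, stood at 341 CPM (318 to 365) in stomach cells and 29.2 CPM (26.8 to 31.8) in esophageal cells, a ratio of 11.7 (10.5 to 13.03). Slc35b2, which moves the activated sulfate donor PAPS into the Golgi, stood at 64.8 CPM in stomach cells and 28.8 CPM in esophageal cells, a ratio of 2.25 (1.87 to 2.69). Both of these carriers were therefore higher in the stomach cells by the rule. The call of Slc35b2 ended with TMM scaling, at a ratio of 1.97, and with every cell weighted equally, at 1.73, where the ratio of Slc26a2 was 6.27.

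Among the chloride carriers, Slc12a2, the sodium, potassium and chloride cotransporter that loads secretory cells with chloride, stood at 78.2 CPM in stomach cells and 37.1 CPM in esophageal cells. Its ratio of 2.11 (1.79 to 2.48) lost its call under 5 alternatives, with values between 1.54 and 1.92. The potassium chloride cotransporters split, with Slc12a7 at 11.3 CPM in stomach cells and 1.63 CPM in esophageal cells, and Slc12a4 at 0.810 CPM in stomach cells and 6.94 CPM in esophageal cells. The sodium phosphate carriers Slc20a1 and Slc20a2 were both lower in the stomach cells, at ratios of 0.265 (0.126 to 0.495) and 0.336 (0.194 to 0.545), and that of Slc20a1 was 0.442 without upper limits on UMIs and genes. Slc9a4, a sodium proton exchanger known from the basolateral membrane of gastric cells, stood at 13.4 CPM in stomach cells and 0.596 CPM in esophageal cells, a ratio of 22.4 (11.1 to 49.2). A single stomach cell held 36.4% of its 33 UMIs, and the ratio was 9.05 without upper limits on UMIs and genes and 3.56 without the keratin call.

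Zinc carriers held both ends of the metal class. Slc39a4, the zinc importer of absorptive epithelium (chr15:76612383-76617384, minus strand), stood at 277 CPM (257 to 299) in stomach cells and 2.49 CPM (1.82 to 3.32) in esophageal cells, a ratio of 111 (82.5 to 153). Its relative Slc39a6 (chr18:24579881-24603817, minus strand) stood at 11.7 CPM (7.87 to 16.9) in stomach cells and 107 CPM (103 to 112) in esophageal cells, a ratio of 0.110 (0.073 to 0.158). The intervals of neither importer overlapped between the tissues. The ratio of Slc39a4 was 39.2 with every cell weighted equally and 191 among cells whose assigned tag held at least 75% of their tag counts. Slc39a11, Slc39a8 and Slc39a9, which also carry zinc or manganese, were higher in the stomach cells with ratios of 4.45, 11.7 and 2.52, and Slc39a13 was lower at 0.450. Slc39a8 rests on few UMIs, 51 over all barcodes. Its ratio was 6.19 without upper limits on UMIs and genes and 4.68 without the keratin call. The call of Slc39a9 ended under 3 alternatives and that of Slc39a13 under 5.

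The metallothioneins Mt1 and Mt2, which bind zinc in the cytosol and are not carriers, stood at 526 and 64.4 CPM in stomach cells and at 1591 and 792 CPM in esophageal cells, and both met the rule for lower. The iron exporter Slc40a1 was higher in the stomach cells on 10 UMIs there and 2 in the esophageal cells, a ratio of 37.4 (7.96 to 351) that was 15.1 without upper limits on UMIs and genes. Slc11a2, the iron importer DMT1, stood at 12.1 CPM in stomach cells and 9.43 CPM in esophageal cells and met neither rule. The copper carriers also divided, with Slc31a2 lower in the stomach cells at a ratio of 0.375 (0.197 to 0.653) and the main copper importer Slc31a1 at 51.4 CPM in stomach cells and 28.5 CPM in esophageal cells, in neither group. None of the zinc exporters of the Slc30 family that were members met a rule in either direction, with ratios from 0.868 for Slc30a4 to 1.36 for Slc30a7.

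Slc44a4, a choline-like transporter known to carry thiamine pyrophosphate, stood at 86.3 CPM (75.1 to 98.7) in stomach cells and 2.005 CPM (1.41 to 2.76) in esophageal cells, a ratio of 43.03 (30.2 to 62.8). Its relatives Slc44a3 and Slc44a2 followed with ratios of 20.3 (13.8 to 30.7) and 3.78 (3.12 to 4.57), while Slc44a1, the most studied choline carrier of the family, had a ratio of 1.21 (0.953 to 1.53). Slc27a4, a fatty acid transport protein with acyl-CoA synthetase activity, stood at 44.1 CPM in stomach cells and 8.07 CPM in esophageal cells, a ratio of 5.47 (4.23 to 7.05). Its relative Slc27a3 ran the other way on few UMIs, 2 in stomach cells and 129 in esophageal cells. The ratio of Slc44a4 was 20.1 with every cell weighted equally and 17.9 without the keratin call, but 246 (111 to 678) without the superficial-like clusters 2 and 9 of the squamous cells, and that of Slc44a3 was 10.8 without the keratin call.

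Of the 21 members of the Slc35 family, 0 were lower in the stomach cells, 6 were higher and 15 met neither rule. Not all of them are known carriers of nucleotide sugars, and the 6 include the PAPS carrier Slc35b2 described above. Slc35c1, which supplies the Golgi with GDP-fucose, stood at 66.8 CPM in stomach cells and 8.29 CPM in esophageal cells, a ratio of 8.06 (6.43 to 10.1). Slc35f5 and Slc35g1, whose substrates are less well known, had ratios of 7.70 (6.19 to 9.57) and 28.03 (15.9 to 52.1). Slc35f5 moved to 4.92 without upper limits on UMIs and genes, and Slc35g1 to 14.9 with every cell weighted equally and 10.7 without the keratin call. The carriers of other sugars were less different. Slc35a1 for CMP-sialic acid, Slc35a2 for UDP-galactose and Slc35a3 for UDP-N-acetylglucosamine had ratios of 1.64, 1.57 and 1.75, with intervals above 1 but under the fold of the rule.

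Sugar transporters other than Slc2a1 were mostly sparse. Slc5a9, a sodium-coupled carrier of mannose and glucose, stood at 14.2 CPM in stomach cells and 0.759 CPM in esophageal cells, a ratio of 18.7 (9.80 to 37.6). Slc5a1, the sodium glucose cotransporter SGLT1, had 0 UMIs in stomach cells and 106 UMIs in esophageal cells, a ratio of at most 0.212. The same sodium-coupled family thus had a member called in each direction. Slc37a1, a glucose-6-phosphate carrier of the endoplasmic reticulum, stood at 42.1 CPM in stomach cells and 1.79 CPM in esophageal cells, a ratio of 23.6 (15.8 to 35.99), and Slc45a3 had a ratio of 44.8 (21.96 to 103). Without the keratin call the ratios of Slc37a1, Slc45a3 and Slc5a9 were 11.99, 15.1 and 11.98, and without squamous clusters 2 and 9 that of Slc37a1 was 48.1. The lactate and pyruvate carrier Slc16a1 stood at 21.1 CPM in stomach cells and 29.4 CPM in esophageal cells and met neither rule, while Slc16a6 was higher in the stomach cells with a ratio of 2.89 (1.94 to 4.22) that fell to 1.59 with every cell weighted equally.

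The abundant mitochondrial carriers were close in both tissues. Slc25a3, which brings phosphate into mitochondria, stood at 689 CPM in stomach cells and 591 CPM in esophageal cells, a ratio of 1.17 (1.11 to 1.23). The ADP/ATP carriers Slc25a5 and Slc25a4 had ratios of 1.06 (1.003 to 1.12) and 0.924 (0.851 to 1.003). Away from this core, the citrate carrier Slc25a1 was higher in stomach cells, at 152 CPM against 58.5 CPM in esophageal cells, as were both aspartate glutamate carriers, Slc25a13 with a ratio of 4.56 (3.56 to 5.83) and Slc25a12 with a ratio of 2.32 (1.77 to 3.01). Slc25a48 followed with a ratio of 4.23 (3.55 to 5.02). The call of Slc25a12 ended with every cell weighted equally, at 1.63. Slc25a37, the iron importer mitoferrin-1, was lower in the stomach cells at a ratio of 0.241 (0.137 to 0.395), or 0.369 without upper limits on UMIs and genes, while mitoferrin-2, Slc25a28, had a ratio of 0.706 (0.489 to 0.990). Slc25a29, a carrier of basic amino acids, and Slc25a33, a pyrimidine nucleotide carrier, were also lower, with ratios of 0.188 and 0.291.

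Of 11 vitamin and nucleoside carriers 2 were higher in the stomach cells and 1 was lower, and of 13 organic ion carriers 3 were higher and 1 was lower. The higher organic ion carriers numbered 1 with TMM scaling and 1 without top cells. In the main comparison 18.1% of all genes were higher and 13.5% were lower. The riboflavin transporter Slc52a3 was higher in stomach cells, at 14.2 CPM against 3.09 CPM in esophageal cells, and the vitamin C transporter Slc23a2 was lower on 7 UMIs in stomach cells and 124 in esophageal cells, a call that ended under 3 alternatives. The folate carrier Slc19a1, the taurine carrier Slc6a6 and the creatine carrier Slc6a8 had ratios of 1.18, 0.848 and 1.31, all with intervals that include 1. Slc22a15, an organic cation carrier relative, was lower in the stomach cells at a ratio of 0.242 (0.124 to 0.429). A few members are not carriers themselves. The scaffold proteins Slc9a3r1 and Slc9a3r2 bind exchangers and channels beneath the apical membrane, Slc4a1ap is an adaptor and Slc7a6os is a neighbour of Slc7a6, and Slc9a3r1 stood at 90.7 CPM in stomach cells and 91.9 CPM in esophageal cells.

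Partners of the carriers also differed. Of 27 measured genes of a list of 32 pump subunits, chaperones, channels, carbonic anhydrases and related transporters, 10 were higher in the stomach cells, 7 were lower and 10 met neither rule. Beside them, 18.1% of all genes of at least 50 UMIs were higher and 13.5% were lower. Bsg, the chaperone that brings monocarboxylate carriers to the surface, stood at 6974 CPM in stomach cells and 685 CPM in esophageal cells, a ratio of 10.2 (9.94 to 10.4). Beta subunits of the sodium pump went opposite ways, Atp1b1 at 783 CPM in stomach cells and 10.9 CPM in esophageal cells, and Atp1b3 at 79.8 CPM in stomach cells and 395 CPM in esophageal cells. Kcnq1 and Kcne3, subunits of a basolateral potassium channel, had ratios of 82.2 (56.8 to 123) and 27.1 (20.1 to 37.1). Carbonic anhydrases split too, with cytosolic Car2 at 320 CPM in stomach cells and 15.98 CPM in esophageal cells, and membrane-bound Car12 at 4.05 CPM in stomach cells and 131 CPM in esophageal cells.

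Squamous cells were then divided into 9 clusters on variable genes from which every Slc gene was left out. Clusters 5 and 6 (68 and 57 cells) were G1/S-like and cluster 3 (105 cells) G2/M-like. Cluster 7 (48 cells, led by U90926, Csf3 and Inhba) was wound-like, cluster 4 (79 cells, led by Rhov and Plbd1) early suprabasal-like, and clusters 2 (131 cells, led by S100a9, S100a8 and Klk14) and 9 (14 cells, led by Clca3b, Duoxa2 and Il1r2) both superficial-like. Cluster 2 also bore the early suprabasal list, at 38400 CPM with 10 of 11 markers higher, above the 20450 CPM and 7 markers of cluster 4. Its superficial list had 14 of 16 markers higher. In cluster 7, 9 of 15 wound-like markers were higher, but the list summed to 1508 CPM there against 1376 CPM in other squamous cells. The same list summed to 10540 CPM in cluster 2 and 6779 CPM in cluster 9, with 4 and 2 markers higher. Of 11 basal markers, 5 were also higher in cluster 7. Cluster 1 (169 cells) and cluster 8 (31 cells, led by Car2 and Igfbp7) stayed unnamed. Median UMIs per cell were 3643 in cluster 1 and 2277 in cluster 2, against 31739 to 49623 in the other clusters. All clusters come from 1 sample, and each was set against all other squamous cells.

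At least 1 cluster was higher by the rule for 45 of the 173 members, beside 26.5% of all genes of at least 50 UMIs, or a share of the members close to that background. Cluster 2 had 16 members higher (9.25%, beside 7.08% of all genes) and 30 lower (17.3%, beside 17.1%). Cluster 9 had 15 members higher (8.67%, beside 7.72% of all genes) and 36 lower (20.8%, beside 28.4%), beside which clusters 1, 3 and 8 had 3, 3 and 2 members higher where 1.44%, 3.1% and 1.79% of all genes were. Without the top cell of each gene, 31 members were higher in at least 1 cluster. Within cells of at least 10000 UMIs, where cluster 2 kept 17 cells, the count was 46. The share of all genes under these 2 settings is not given here, and the 26.5% belongs to the main clustering only.

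**Figure D4:**
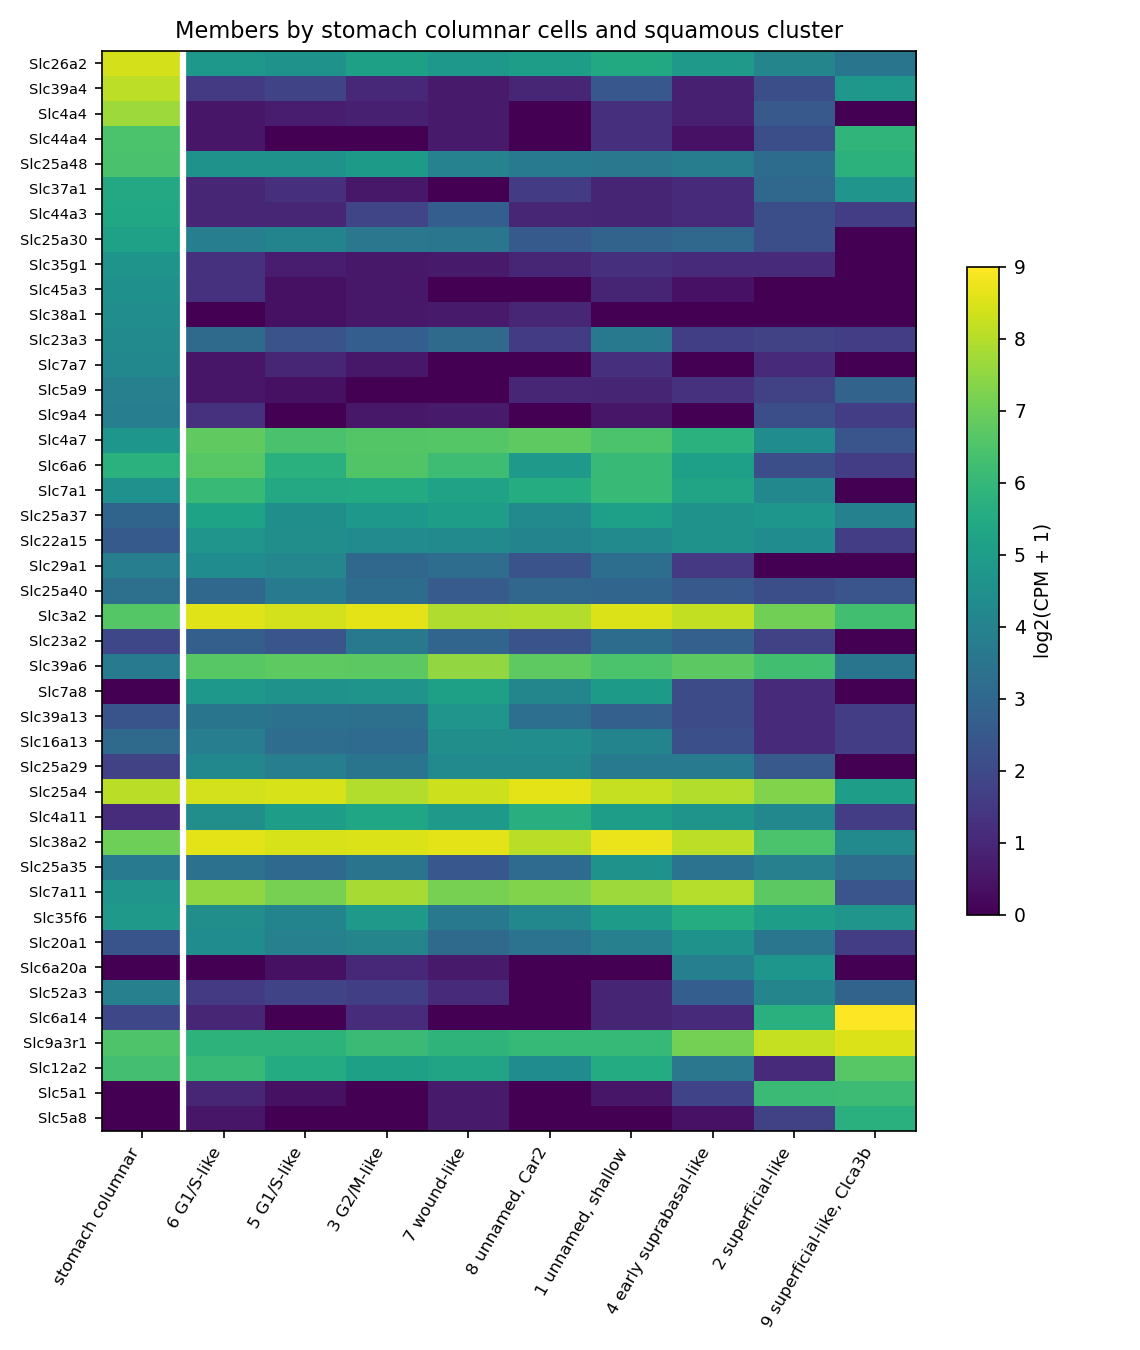
Level, as log2(CPM + 1), of members named for the tissue or cluster comparisons (rows) in stomach columnar cells (left column) and in the 9 squamous clusters, with a white line between them. Slc6a14, Slc5a1 and Slc5a8 are brightest in the superficial-like clusters at the right, and among the squamous clusters Slc38a2, Slc3a2 and Slc7a11 are dimmest in clusters 2 and 9.

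Both superficial-like clusters were higher for sodium-coupled uptake carriers that were near 0 in most other squamous cells. Slc5a1, the sodium glucose cotransporter, stood at 69.9 CPM in cluster 2 against 2.61 CPM in other squamous cells, a ratio of 26.7 (17.9 to 40.1), and at 70.5 CPM in cluster 9 against 4.01 CPM in other squamous cells, a ratio of 17.6 (11.4 to 26.8). Both clusters together held 94 of its 106 squamous UMIs, 88.7%, while they held 7.26% of all squamous UMIs. Slc6a14, a broad sodium and chloride coupled carrier of neutral and cationic amino acids, stood at 527 CPM in cluster 9 against 3.12 CPM in other squamous cells, a ratio of 169 (126 to 230), and at 51.2 CPM in cluster 2 against 15.1 CPM in other squamous cells. Of the 14 cells of cluster 9, 9 held a Slc6a14 UMI, with a median of 4 and a highest count of 100. It supplied 78.9% of the UMIs of all amino acid transporters in that cluster. The ratio in cluster 9 was 143 without the top cell of each side.

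The tissue comparison of these carriers turned on the same clusters. Slc6a14 stood at 2.83 CPM in stomach cells and 16.8 CPM in all esophageal squamous cells, a ratio of 0.169 (0.067 to 0.352). With clusters 2 and 9 left out, an alternative chosen after seeing the data, the squamous level was 0.701 CPM on 12 UMIs and the ratio 4.04 (1.35 to 11.1), so that Slc6a14 was then higher in the stomach cells. For Slc5a1 the same step also left 12 squamous UMIs and no informative bound, since the 0 UMIs of the stomach cells allow more. With these clusters left out, 50 members were higher in the stomach cells and 25 lower.

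Slc5a8, a sodium-coupled carrier of short-chain carboxylates and iodide, had 27 of its 30 squamous UMIs in the superficial-like clusters. It stood at 51.9 CPM in cluster 9 against 0.278 CPM in other squamous cells, a ratio of 186 (70.1 to 624), and had 0 UMIs in the stomach cells. Slc44a4 and Slc37a1, both higher in stomach than in esophageal cells, stood in cluster 9 at 58.1 and 24.9 CPM against 0.501 and 1.17 CPM in other squamous cells. In stomach columnar cells Slc44a4 and Slc37a1 stood at 86.3 and 42.1 CPM. Beside these values, 4 of 15 columnar markers were higher in cluster 9, the list summing to 552 CPM there against 243 CPM in other squamous cells and 6853 CPM in stomach cells, and the part of columnar RNA in these values was not tested. In cluster 2 the columnar list summed to 1041 CPM against 212 CPM in other squamous cells, with 8 of 15 markers higher. The stomach-high Slc4a4 and Slc9a4 were higher in cluster 2, with ratios of 6.83 (1.61 to 22.5) on 4 UMIs and 7.69 (1.31 to 32.02) on 3 UMIs, and both calls ended without the top cell. Slc4a4 and Slc38a1 had 0 UMIs in cluster 9. Slc39a4 was also higher in cluster 9, at a ratio of 14.7, but its call ended without the top cell of each side, at 2.74.

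Clusters 2 and 4 shared Slc6a20a, a sodium-coupled carrier of proline. It stood at 25.6 CPM in cluster 2 against 2.50 CPM in other squamous cells, a ratio of 10.2 (5.85 to 17.5), and at 13.7 CPM in cluster 4 against 1.79 CPM in other squamous cells, a ratio of 7.68 (4.59 to 12.99). Cluster 9 held 0 UMIs of it. The riboflavin carrier Slc52a3 was likewise higher in clusters 2 and 4, at ratios of 6.67 (3.37 to 12.4) and 2.02 (1.04 to 3.72), and in cluster 4 that call ended without the top cell. Cluster 4 had 3 members higher in all, 1.73% beside 2.48% of all genes, the other being Slc35f6 at a ratio of 2.07 (1.68 to 2.54), and 22 lower, 12.7% beside 11.1%.

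Fatty acid carrier Slc27a4 and scaffold Slc9a3r1 were higher in both superficial-like clusters. Slc27a4 stood at 30.3 CPM in cluster 2 against 6.99 CPM in other squamous cells, and at 29.04 CPM in cluster 9 against 7.51 CPM in other squamous cells. Slc9a3r1 stood at 294 CPM in cluster 2 and 367 CPM in cluster 9, against 82.1 and 84.5 CPM in the squamous cells outside each, with ratios of 3.58 (3.12 to 4.09) and 4.34 (3.70 to 5.08). Copper carrier Slc31a2 was higher in both as well, with ratios of 2.39 and 2.62. Cluster 2 alone met the rule for Slc31a1, Slc30a7, Slc35a2 and Slc35f5, and the calls of Slc31a1 and Slc30a7 ended without the top cell.

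**Figure D5:**
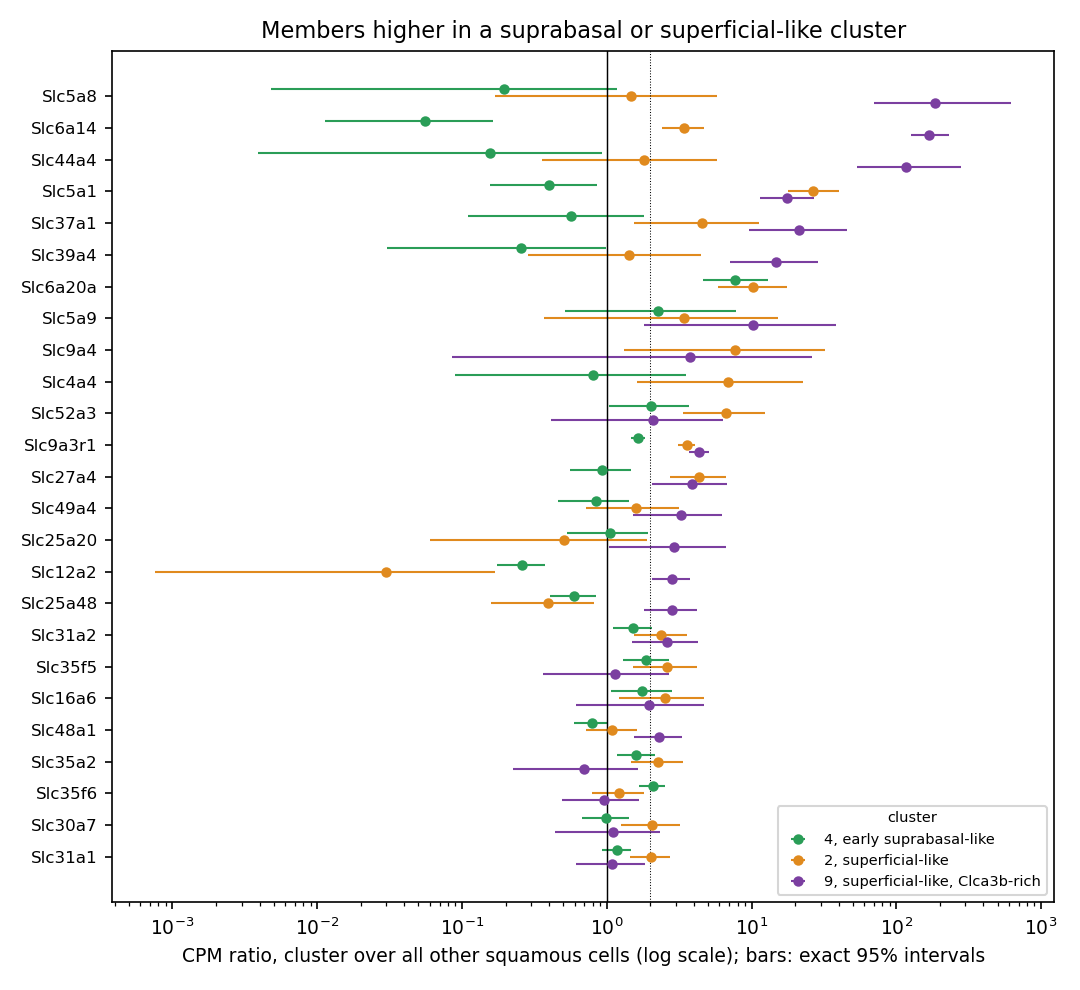
CPM ratio of clusters 4, 2 and 9 over all other squamous cells for 25 of the members higher in at least 1 of them, on a log axis with exact 95% intervals; the solid line marks equal levels, the dotted line a ratio of 2, and clusters with 0 UMIs have no point. Slc5a8, Slc6a14 and Slc44a4 lie above 100 in cluster 9 alone, and Slc12a2 is low in clusters 4 and 2 and high in cluster 9.

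The amino acid carriers that dominated the esophageal side were lowest in cluster 9. Slc7a11 stood at 254 CPM in cluster 4, 105 CPM in cluster 2 and 4.15 CPM in cluster 9, against 141 to 225 CPM in the remaining clusters, and met the rule for lower in cluster 9 alone. Slc38a2 stood at 276, 87.4 and 18.7 CPM in clusters 4, 2 and 9, and Slc3a2 at 290, 134 and 76.8 CPM. For these 3 genes, cluster 9 was the lowest of the 9 clusters. Slc7a8 was already low in cluster 4, at 3.25 CPM against 23.7 CPM in other squamous cells, a ratio of 0.137 (0.062 to 0.263), while its usual partner Slc3a2 was not. The taurine carrier Slc6a6 stood at 32.5, 3.49 and 2.07 CPM in clusters 4, 2 and 9, and at 93.9 and 100.5 CPM in the cycling clusters 3 and 6. The ADP/ATP carrier Slc25a4, which was close between the tissues, stood at 31.1 CPM in cluster 9 against 293 CPM in other squamous cells, a ratio of 0.106 (0.059 to 0.175).

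Slc12a2 did not follow this order. It stood at 10.8 CPM in cluster 4 and 1.16 CPM in cluster 2, where a single UMI was counted, but at 99.6 CPM in cluster 9 against 35.4 CPM in other squamous cells, a ratio of 2.81 (2.05 to 3.78). Its UMIs lay in 10 of the 14 cells, and the ratio was 2.30 without the top cell of each side. The same cluster was at 4.15 CPM for Slc4a7 and 10.4 CPM for Slc39a6, ratios of 0.049 and 0.094 to other squamous cells. Clusters 2 and 9 thus had opposite calls for Slc12a2 although both bore superficial markers.

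Cluster 5 had 3 members higher, beside 4.58% of all genes, and cluster 6 had 5, beside 2.84%. Slc29a1, the equilibrative nucleoside transporter through which cells salvage nucleosides, stood at 17.1 CPM in cluster 5 against 7.42 CPM in other squamous cells, a ratio of 2.31 (1.63 to 3.23), and at 19.9 CPM in cluster 6 against 7.65 CPM in other squamous cells, a ratio of 2.60 (1.79 to 3.72). It had 1.80 CPM in cluster 4 and 0 UMIs in clusters 2 and 9. Slc29a2, a relative, was higher in cluster 6 at a ratio of 3.101 (1.45 to 6.24) on 12 UMIs, and also in the wound-like cluster 7. Slc24a5, a potassium-dependent sodium and calcium exchanger, was higher in clusters 5 and 6 at ratios of 2.06 and 2.27, and both calls ended without the top cell. In cluster 3 the vitamin C carrier Slc23a2, the urate and sugar carrier Slc2a9 and the lysosomal amino acid carrier Slc36a1 were higher, with ratios of 2.17, 2.84 and 2.70.

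The wound-like cluster 7 had 7 members higher, 4.05% beside 3.86% of all genes. Slc39a13, a zinc carrier of the secretory pathway known for connective tissue disease when lost, stood at 24.9 CPM in cluster 7 against 7.27 CPM in other squamous cells, a ratio of 3.42 (2.37 to 4.85). Slc44a3, Slc12a4, Slc41a1, Slc29a2 and Slc16a13 had ratios between 2.27 and 3.54, of which the call of Slc29a2 ended without the top cell. Slc39a6 was at 186 CPM in cluster 7 against 98.6 CPM in other squamous cells, a ratio of 1.89 (1.68 to 2.13) that stayed under the rule. In cluster 1, Slc25a35, Slc23a3 and Slc38a6 were higher with ratios of 2.62, 2.49 and 2.44. Leading genes of cluster 1 included the gastric genes Tff1 and Gkn3, 5 of 15 columnar markers were higher there, and the part of stomach RNA in its values was not tested.

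Set against each squamous cluster in turn, 20 members had a stomach interval above that of every cluster, 11.6% beside 7.89% of all genes. They include Slc4a4, Slc39a4, Slc26a2, Slc38a1, Slc7a7, Slc7a4, Slc44a3, Slc35c1, Slc35f5, Slc35g1, Slc35b2, Slc45a3, Slc4a2 and Slc25a1. No member, 0 of 173, had a stomach interval below that of every cluster, beside 0.813% of all genes, and the small clusters have wide intervals. Slc7a11 shows this, with 24.7 CPM (18.9 to 31.7) in stomach cells and 4.15 CPM on 2 UMIs in cluster 9.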

How the data were processed

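The authors deposited raw UMI counts per gene and barcode, with tag counts and the tag that demultiplexing (deMULTIplex) gave each barcode. The submitters' processing notes name Cell Ranger 3.1.0 and mm10. The counts carry no normalization by the authors and no stable gene identifiers, so genes are named by symbol. Positions are from the GENCODE annotation of GRCm38, and 172 of 173 members matched.

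Cell limits, which the methods give for tissue cells, were 100 to 8500 genes (both excluded), 80000 UMIs and a mitochondrial share of 20%. Lineage was called from 6 keratins (squamous share of at least 0.75 or at most 0.25, at least 5 UMIs). Doublets were handled by demultiplexing and by leaving out hybrids of the keratin call, with no doublet caller. UMIs were summed per group and given as CPM, with exact Poisson, conditional binomial and Clopper-Pearson 95% intervals (scipy 1.17.1). A count of 0 was set at a floor of 3 counts over the group, 1.21 CPM in stomach cells. UMIs of 3′ ends were not scaled by length, so levels are compared within a gene only. With 1 sample per group no test was possible. The calling rule was run on simulated Poisson counts with known folds, which held no differences between cells or mice. That run therefore cannot gauge how such differences affect the calls. Of the members, 34 overlap another annotated gene on their strand, and how the reads of such genes were divided is not given in the sources used here.

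Clusters used Leiden (leidenalg 0.10.2, resolution 0.8) on 2000 variable genes, 20 components and 15 neighbours, and were named from marker lists. Members and lists were chosen with earlier results of these data known. Named members, of at least 10 CPM, were the 12 of highest lower bound in each direction, up to 4 per class of largest fold and 3 per cluster, 66 in all. Others are named to complete a class or a count, after their values were seen. Alternatives were other cell weights, TMM scaling (edgeR 4.0.16), cell limits, keratin call, depth, tag share, top cells, gene minimums and clusterings. Results for a few genes are not reported here.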

Additional observations from a re-analysis of the deposited data

Results flagged for a closer look

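The comparisons above left out 24 columnar cells that carry the esophageal tag, with 829480 UMIs. For 32 of the 66 named members, their level in these cells had an interval above that of the esophageal squamous cells. These members were picked for large differences between stomach and esophagus. Over all 173 members, 59 (34.1%) had such an interval, beside 23.5% of all genes of at least 50 UMIs, and 16 (9.25%) had one below, beside 12.2%. Slc4a4 stood at 149 CPM in them, Slc39a4 at 109 CPM, Slc26a2 at 250 CPM, Slc38a1 at 21.7 CPM, Slc7a7 at 16.9 CPM and Slc44a4 at 55.5 CPM. Some carriers that were high in squamous cells were lower in them, with Slc7a11 at 13.3 CPM, Slc39a6 at 20.5 CPM, Slc4a11 at 9.64 CPM and Slc7a8 at 0 UMIs. Of these, Slc39a6 and Slc4a11 still stood above their levels in stomach columnar cells, and Slc7a11 stood below its level there. Whether these cells came from the esophageal organoids or were given the wrong tag was not tested.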

How the results depend on the processing

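Over 11 alternatives to the tissue comparison, of which leaving out the superficial-like clusters was chosen after seeing the data, between 37 and 56 members were higher in the stomach cells, between 19 and 27 were lower, and the median log2 fold of the members lay between 0.11 and 0.42. The extremes of the counts come from a minimum of 200 or 10 UMIs per gene. With other clusterings, deeper cells or no top cells, between 31 and 51 members were higher in at least 1 squamous cluster. No share of all genes is given here for these settings. No call changed direction other than that of Slc6a14, whose log2 fold was 2.02 with clusters 2 and 9 left out, because these held 298 of its 310 squamous UMIs. Calls ended for 12 members with every cell weighted equally, 6 with TMM scaling, 8 without upper limits, 8 without any limits, 5 without the keratin call, 1 among deep cells, 4 by tag share, 5 without top cells and 3, Slc6a14 among them, without clusters 2 and 9, and the cause was not tested. No paired analysis was possible because each group held 1 sample. The 46 stomach cells limit low genes, where 3 UMIs are 1.21 CPM, and no interval covers differences between mice.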
